A study of Mus musculus with 2 samples.

Results

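The genes described here encode the protein complexes of oxidative phosphorylation. They were taken by name from the array's own gene names: every name that starts with Nduf, Sdha to Sdhd, Uqcr, Cox4 to Cox8 or Atp5. The prefixes took 95 names on 138 probes, and 91 of these names had at least 1 probe well above background on both arrays, out of 12407 measured genes in all. Of the 95 names, 74 are nuclear-encoded subunits of the 5 complexes, namely 36 of complex I, 4 of complex II, 8 of complex III, 11 of complex IV and 15 of complex V, and all 74 were measured. A further 8 are tissue-restricted isoforms of complex IV subunits, of which 4 were measured. The last 13 names share a prefix but are no subunits, since they belong to assembly factors, regulators and a pseudogene, and all 13 were measured.

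The 5 complexes sit in or on the inner mitochondrial membrane. Complex I oxidises NADH and complex II oxidises succinate, complex III passes the electrons on to cytochrome c, and complex IV hands them to oxygen. Complexes I, III and IV pump protons, and complex V, the ATP synthase, lets the protons flow back to make ATP. Most subunits are made from nuclear genes and imported, while a small core of complexes I, III, IV and V is made inside the organelle from mitochondrial DNA. Macrophages activated with lipopolysaccharide (LPS) are known to lean on glycolysis and to use the respiratory chain partly for signalling.

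The samples were mouse bone marrow-derived macrophages, grown from marrow for 5 days in M-CSF supplied as CMG14-12 culture medium and then given 100 ng/ml LPS for 5 h. Both cultures had that treatment, and they differed in the gene Maf, which encodes the transcription factor c-Maf: 1 carried c-Maf+/- and the other c-Maf-/-. The reference is therefore itself a heterozygote, with no wild-type and no unstimulated culture, and the labels used here give neither the strain nor the age of the animals, nor whether a culture came from 1 animal or several. RNA (50 ng of total RNA, labelled with Cy3) was hybridised to 1 Agilent one-colour array per genotype, so no difference below has a replicate check, a standard error or a p-value.

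Differences are log2 values, c-Maf-/- minus c-Maf+/-, after each array was set to its own 75th percentile, and signals are processed intensities before that step, averaged on the log scale where a gene has several probes. A signal of one probe is not set against that of another, since probes differ in how well they bind. In place of replicate error, the spots of the 227 probes printed at least 8 times on each array had a median SD of 0.07 in the difference, and 0.03 for the 44 of them as bright as most subunits. These describe the array alone, not the spread between cultures. Where the spot SD is named below, it is the 0.07 of all 227 probes.

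The targeted gene went with the labels. The Maf probe with the brighter signal read 15101 in c-Maf+/- and 12.6 in c-Maf-/-, and the other read 541 and 5.96. Neither was well above background in c-Maf-/-, so both are bounds: at least 666-fold and at least 23.8-fold lower.

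The promoters below show motifs that some of the nuclear genes hold. Nuclear respiratory factor 1 (NRF1) and the ETS factor GABP are textbook activators of respiratory genes. Each sequence is the 250 bases before the annotated start, read 5′ to 3′ on the transcribed strand, from RefSeq on GRCm38.p6, with NRF1 matches (GCGCA, any base, then GCGC) and ETS matches (CCGGAAG, or CTTCCGG on the other strand) in capitals. For each complex the subunit with the most matches among those considered is printed. Those considered had 1 listed start, but not every such subunit was considered, and one left out may hold as many matches or more. Ndufaf4 is added because it was the member farthest from 0. Picked this way, they are not typical of the subunits.
Ndufaf4, chr4:24897833-24898082, plus strand: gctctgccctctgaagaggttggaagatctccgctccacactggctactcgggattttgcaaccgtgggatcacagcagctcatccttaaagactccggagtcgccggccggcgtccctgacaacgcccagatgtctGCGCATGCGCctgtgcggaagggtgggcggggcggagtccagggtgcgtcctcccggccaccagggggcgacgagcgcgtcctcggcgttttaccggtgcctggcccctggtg
Ndufb4, chr16:37654369-37654618, minus strand: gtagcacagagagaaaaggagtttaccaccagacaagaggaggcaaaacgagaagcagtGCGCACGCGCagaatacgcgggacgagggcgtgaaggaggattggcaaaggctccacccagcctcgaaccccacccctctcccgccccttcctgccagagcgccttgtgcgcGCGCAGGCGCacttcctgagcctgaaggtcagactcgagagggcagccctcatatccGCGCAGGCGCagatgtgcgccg
Sdha, chr13:74350241-74350490, minus strand: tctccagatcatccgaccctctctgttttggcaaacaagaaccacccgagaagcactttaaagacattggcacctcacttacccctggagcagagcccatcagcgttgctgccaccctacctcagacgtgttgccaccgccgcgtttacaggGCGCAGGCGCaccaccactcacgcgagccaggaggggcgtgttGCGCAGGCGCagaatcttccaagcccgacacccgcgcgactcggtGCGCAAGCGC
Uqcr11, chr10:80406822-80407071, minus strand: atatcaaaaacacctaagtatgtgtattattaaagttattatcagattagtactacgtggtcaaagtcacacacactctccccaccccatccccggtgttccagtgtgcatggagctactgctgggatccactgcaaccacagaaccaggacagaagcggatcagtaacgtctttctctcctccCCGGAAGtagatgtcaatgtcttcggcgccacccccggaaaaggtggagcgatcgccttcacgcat
Cox6a1, chr5:115348959-115349208, minus strand: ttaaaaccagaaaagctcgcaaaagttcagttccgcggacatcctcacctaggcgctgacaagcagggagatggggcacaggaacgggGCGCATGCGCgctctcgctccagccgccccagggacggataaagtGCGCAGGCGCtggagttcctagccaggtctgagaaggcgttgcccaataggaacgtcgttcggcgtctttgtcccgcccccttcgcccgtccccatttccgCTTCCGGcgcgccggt
Atp5h, chr11:115419920-115420169, minus strand: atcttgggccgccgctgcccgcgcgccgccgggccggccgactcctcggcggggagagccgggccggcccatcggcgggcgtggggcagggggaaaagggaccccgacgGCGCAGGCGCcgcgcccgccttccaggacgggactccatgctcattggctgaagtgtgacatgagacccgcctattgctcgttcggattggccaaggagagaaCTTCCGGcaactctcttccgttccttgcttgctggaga

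The search covered both strands of the 250 bases, for the 63 of the 74 subunits with a promoter in the table. An NRF1 match was found for 13 of the 63 subunits, 20.6%, against 4.23% of all 27025 genes with a promoter. An ETS match was found for 12, 19.0%, against 7.83% of all genes. Genes of the mitochondrial ribosome held them too, with NRF1 matches in 14.5% and ETS matches in 26.1%. The E-box CACGTG was found in 9.52% of the subunits and 6.86% of all genes, and the hypoxia-factor core ACGTG, which also lies within CACGTG, in 20.6% and 18.5%. Sdha and Ndufb4 each held 3 NRF1 matches. The 13 subunits with an NRF1 match had a median difference of -0.04, from -0.16 to 0.02, and the 50 without one had a median of -0.07, from -0.20 to 0.17. The range of the subunits with a match lies within the wider range of those without. A match is a run of letters and shows no binding.

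The subunits of the 5 complexes were close to equal on both arrays. Of the 74 subunits, 0 were higher by 1.2-fold or more and 0 were lower by that much, where 16.9% of all measured genes were higher and 19.9% were lower at that fold. Genes of similar brightness, 707 of them with levels between the quartiles of the subunits, passed the same fold in 5.8% (higher) and 22.2% (lower). With the labelled spike-in RNA as the scale, 2 subunits were higher at that fold, Ndufb3 at 0.31 and Ndufv3 at 0.27. At 2-fold, 0 subunits were called, against 1.42% higher and 1.73% lower of all genes, and 0.283% and 1.84% of similarly bright ones. The subunits ran from -0.20 (Ndufa3) to 0.17 (Ndufb3), with an SD over genes of 0.07, while the SD was 0.41 over all measured genes and 0.32 over those of similar brightness. The spread over all genes was thus 6.13 times that of the subunits, and the spread over similarly bright genes 4.87 times. For 39 of the 74, 52.7%, the difference was within the spot SD of 0.07, against 22.1% of all genes and 31.1% of similarly bright ones. The bound of 0.07 is wider than the 0.03 of the bright replicated probes, and the share within 0.03 was not counted. Neither share was counted with spike-in scaling, which put the median of the subunits at 0.09.

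**Figure D1:**
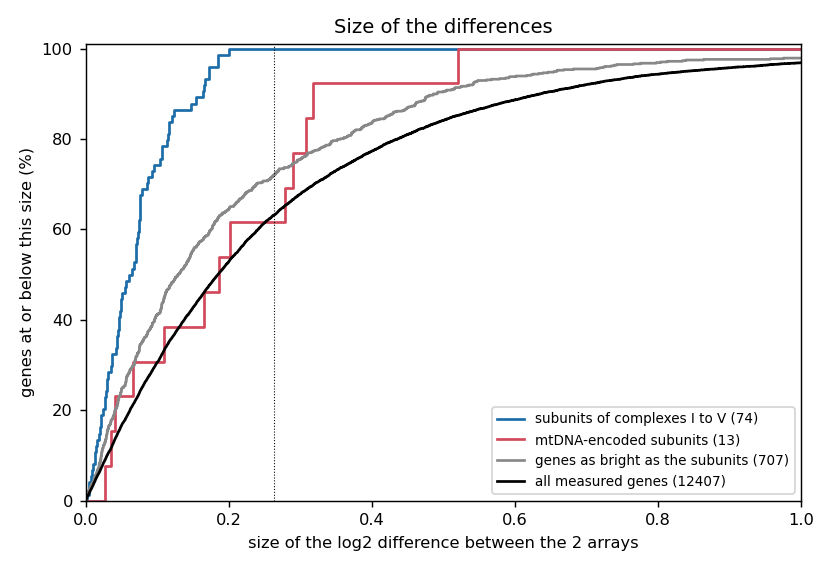
Share of genes (vertical axis, percent) whose log2 difference between the arrays was at or below the size on the horizontal axis, for the 74 nuclear subunits, the 13 subunits made from mitochondrial DNA, the 707 genes of similar brightness and all 12407 measured genes. The curve of the nuclear subunits reaches 100% at 0.20, left of the dotted line at 1.2-fold (0.26), while the curves of both backgrounds are still climbing there.

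The narrow spread held under the 8 other ways of processing the arrays that were tried, with an SD of 0.06 to 0.07, but the side of 0 did not. The median over the 74 subunits was -0.06 with the 75th percentile as the scale, with 62 below 0, but 0.09 with spike-in scaling, with 9 below 0, and 0.02 after quantile normalization, with 26 below 0. The medians of all 5 complexes lay below 0 in the first case and above 0 in the second. The 62 of 74 make 83.8%, where 53.8% of all genes and 68.0% of similarly bright ones were below 0 (46.2% and 32.0% were above). Spike-in scaling moved the median of all genes by 0.15, from -0.02 to 0.12, and relative to all genes the subunits stayed at -0.03 in both. That value was 0.00 after quantile normalization and -0.12 with no filter on dim probes, and the median of the similarly bright genes, -0.07, lay below that of the subunits.

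The medians of the complexes differed little. Complex II had the lowest at -0.10, complex I followed at -0.07, complex IV at -0.06, complex III at -0.05 and complex V at -0.04. The gap between the lowest and the highest was 0.06, which is 1.04-fold. It stayed between 0.05 and 0.08 under the 8 other ways of processing, with complex II lowest in each. With 1 array per genotype this order could not be tested, and the genes of the complexes overlap in value. The SD within a complex was 0.07 for complexes I, II, III and IV and 0.05 for complex V.

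**Figure D2:**
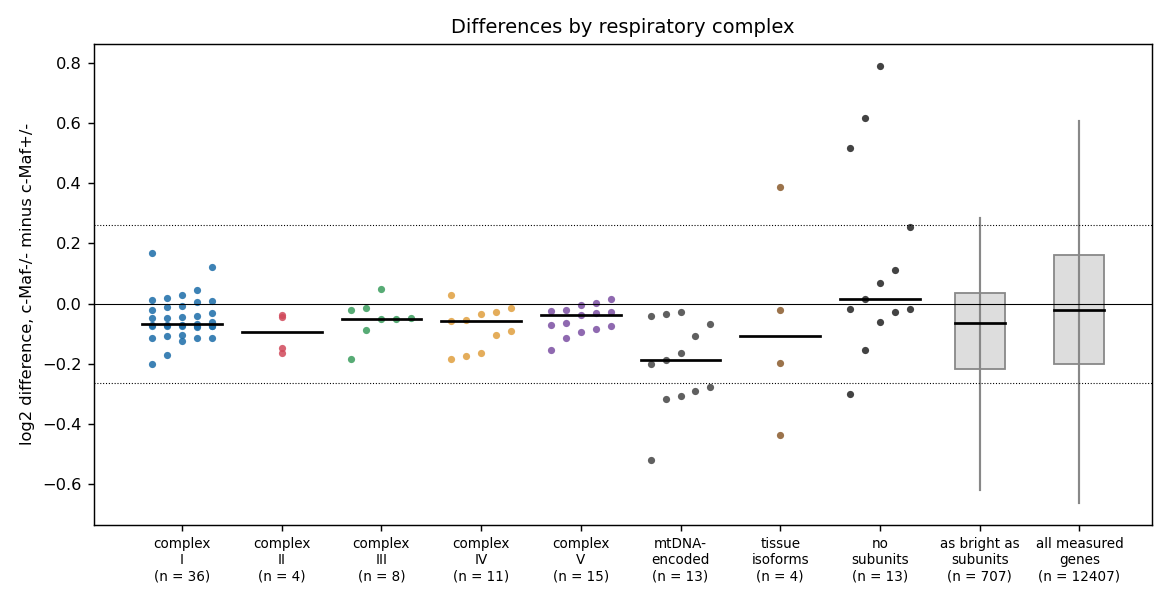
Log2 difference, c-Maf-/- minus c-Maf+/- (vertical axis), with 1 point per gene for the nuclear subunits by complex, the subunits made from mitochondrial DNA, the tissue isoforms and the names that are no subunits, and boxes (median, quartiles, 5th to 95th percentile) for the genes of similar brightness and all measured genes. The medians of the 5 complexes, drawn as bars, lie between -0.10 and -0.04 with the 75th percentile as the scale (0.05 to 0.11 with spike-in scaling). No nuclear subunit of the 5 complexes passes the dotted lines at 1.2-fold, while 5 of the 13 made from mitochondrial DNA lie below the lower line.

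Complex I has 7 nuclear core subunits, which bind the flavin and the iron-sulfur clusters, and 29 accessory ones on this array. The core had a median of -0.07, from Ndufs7 at -0.12 to Ndufs8 at 0.03, and the accessory subunits had one of -0.06. Ndufv1 and Ndufv2, which hold the NADH-oxidising site, both lay at -0.07. Ndufs1 and Ndufs3, further core subunits of the arm that faces the matrix, lay between -0.08 and -0.03.

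The lowest accessory subunits were Ndufa3, Ndufa7 and Ndufa12. Ndufa3 read 980 in c-Maf+/- and 868 in c-Maf-/-, a difference of -0.20, but this is the mean of 2 unequal probes. The probe at chr7:3571695-3571754 (mm9, plus strand) read 25444 and 25003 (-0.05), and the probe at chr7:3569447-3569506 read 37.7 and 30.1 (-0.35). The low place of Ndufa3 therefore came from the probe near background. Ndufa7 read 23856 and 21545 (-0.17) and Ndufa12 read 20063 and 18740 (-0.12). Ndufs4, an accessory subunit of the matrix arm whose loss causes Leigh-like disease, read 12343 and 11593 (-0.12).

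Ndufb3, an accessory subunit of the membrane arm, was the highest of all 74. Its 1 probe, at chr1:58652622-58652681 on the plus strand of mm9, read 9044 on the c-Maf+/- array against 10338 on the other, which is 1.12-fold and a difference of 0.17. Ndufv3, a small accessory subunit beside the flavin site, came next at 0.12 from 3 probes that did not go the same way. The probe at chr17:31668209-31668268 read 23856 and 26249 (0.11), that at chr17:31665148-31665207 read 248 and 327 (0.37), and that at chr17:31663758-31663817 read 247 and 231 (-0.12). It was the 1 member of the 29 with 2 or more probes whose probes opposed each other past the spot SD. Ndufb11, also of the membrane arm, read 1046 and 1100 (0.05). This is the mean of a bright probe at 0.02 (20486 and 21132) and a dim one at 0.07 (53.4 and 57.2).

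The other accessory subunits lay between these. Ndufb10, Ndufa2 and Ndufs5 lay at -0.11, and Ndufb9, Ndufb7, Ndufb5, Ndufa10, Ndufa13, Ndufa9 and Ndufa5 between -0.08 and -0.07. For Ndufb5 this is the mean of a bright probe at 0.02 (8601 and 8864) and a dimmer one at -0.16 (649 and 589). Ndufb2, Ndufb8, Ndufc1, Ndufa1 and Ndufs6 lay between -0.06 and -0.04, and Ndufa11, Ndufb6 and Ndufa6 between -0.02 and -0.01. Ndufc2, Ndufa8, Ndufb4 and Ndufab1, the last being the mitochondrial acyl carrier protein, lay between 0.01 and 0.02. Ndufab1 had a bright probe at -0.04 (15755 and 15608) and a dimmer one at 0.06 (1210 and 1282). In all, 28 of the 36 subunits of complex I were below 0 and 8 above it.

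Complex II, which also serves the tricarboxylic acid cycle as succinate dehydrogenase, has 4 subunits, all nuclear. Sdha, the flavoprotein that oxidises succinate, read 12363 in c-Maf+/- and 11226 in c-Maf-/-, a difference of -0.16 from the probe at chr13:74460310-74460369 (mm9, minus strand). Sdhb, the iron-sulfur subunit, read 13801 and 12685 (-0.15), with its 2 probes at -0.18 and -0.11. The membrane anchors were nearer to 0: Sdhc read 7789 and 7728 (-0.04) and Sdhd read 14734 and 14549 (-0.04). The catalytic subunits were thus the lower ones, though all 4 were inside 1.2-fold.

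Complex III, the cytochrome bc1 complex, had its outlier in Uqcrh, the acidic hinge protein beside cytochrome c1. Uqcrh read 24275 and 21737 (-0.18), and its 2 probes, which overlap on the minus strand of chromosome 4, gave -0.21 and -0.16. Uqcr10, a small membrane subunit, read 10987 and 10531 (-0.09) over 3 probes from -0.10 to -0.07. Uqcrfs1, the Rieske iron-sulfur protein, read 12353 and 12136 (-0.05), and Uqcr11 and Uqcrq, small subunits, both lay at -0.05.

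The core proteins Uqcrc1 and Uqcrc2 were close to 0. Uqcrc1 read 6385 and 6716 (0.05), and Uqcrb, the ubiquinone-binding subunit, read 15772 and 15881 (-0.02). Uqcrc2 read 12883 and 12929 (-0.02) over 10 spots of 1 probe, whose differences had an SD of 0.03. This was the member measured with the most spots, and 7 of the 8 subunits of complex III were below 0.

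In complex IV, cytochrome c oxidase, the lowest were Ndufa4, Cox7c and Cox5a. Ndufa4, which was named as a complex I subunit but sits in complex IV, read 10483 and 9390 (-0.18). Cox5a, a subunit on the matrix side, read 66544 and 60439 (-0.16). Cox7c, a small membrane subunit, had a difference of -0.17 over 3 probes: those reading 17339 and 16733 (-0.08) and 11636 and 10826 (-0.13) were bright, and the one reading 93.4 and 76.5 (-0.31) was dim. As for Ndufa3, the dim probe lay farthest from 0.

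Cox6b1, a subunit on the side where cytochrome c docks, was the highest of complex IV, with 4102 and 4262 (0.03). Cox7b read 33987 and 34262 (-0.01), and Cox4i1, the regulatory subunit that binds ATP, read 63412 and 63331 (-0.03). Cox7a2 lay at -0.04, Cox5b and Cox6c at -0.06, Cox6a1 at -0.09 and Cox8a at -0.10. Thus 10 of the 11 were below 0.

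Complex V had the smallest SD of the 5 complexes. The F1 head, where ATP is made, had a median of -0.01: Atp5b, its catalytic beta subunit, read 104199 and 106200 (0.00), Atp5e read 50317 and 51707 (0.01) and Atp5d read 11366 and 11528 (-0.01). Atp5a1, the alpha subunit, was lower than these with 35202 and 33059 (-0.12), and Atp5c1, the gamma subunit that turns in the head, lay at -0.03. The 5 head subunits are built into one particle, and their differences spanned -0.12 to 0.01.

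The c-ring of the rotor is made of one protein from 3 genes. Atp5g1 read 12727 and 12713 (-0.03), Atp5g2 read 51200 and 49452 (-0.08) and Atp5g3 read 48708 and 46736 (-0.09), so all 3 genes were on the same side with the 75th percentile as the scale, and above 0 with spike-in scaling. In the stalk and membrane part, Atp5f1, the b subunit of the peripheral stalk, was the lowest of complex V with 14445 and 13209 (-0.15). Atp5l, the g subunit, lay at -0.10 over 6 probes that ran from -0.15 to -0.05. Atp5o and Atp5j, also of the peripheral stalk, lay at -0.07 and -0.06, and Atp5h, Atp5j2 and Atp5k between -0.04 and -0.02. In complex V, 13 of 15 were below 0.

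**Figure D3:**
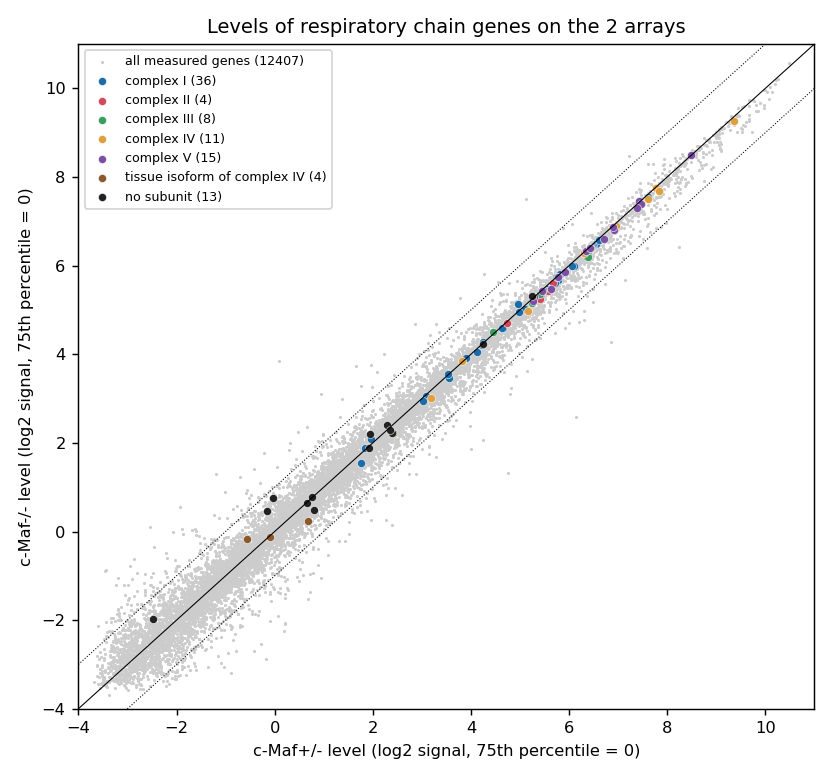
Level of each measured gene (log2 signal minus the array's 75th percentile) in c-Maf-/- (vertical axis) against c-Maf+/- (horizontal axis), with all 12407 measured genes in grey and the members in colour. The line marks equal levels and the dotted lines 2-fold; the 74 subunits lie along the line, while Ndufaf4, Sdhaf1 and Atp5s are the black points above it at the lower left.

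Probes of one subunit repeated each other closely. For the 27 subunits with 2 or more measured probes, the median SD over probes was 0.04, and no probe of any member was marked as an outlier spot. Some probes of one gene overlap in sequence, as those of Uqcrh and Atp5g2 do, and are not separate looks at the transcript.

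The prefixes also took 8 isoforms that stand in for a complex IV subunit in certain tissues. Cox6a2, the heart and muscle form of Cox6a1, read 465 in c-Maf+/- and 349 in c-Maf-/-, a difference of -0.44 from the probe at chr7:135349160-135349219 (mm9, minus strand). Cox6b2, the testis form of Cox6b1, read 197 and 263 (0.39) at chr7:4703488-4703547 on the minus strand. The common forms Cox6a1, at 191007 and 182390, and Cox6b1 were inside 1.2-fold as given above. Cox7a1, the muscle form of Cox7a2, read 1556 and 1382 (-0.20), and Cox4i2, the lung and hypoxia form of Cox4i1, read 272 and 273 (-0.02).

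Ndufa4l2, a relative of Ndufa4 known as a hypoxia target, read 7.98 and 12.9 and was not well above background on either array. The same held for Cox7b2, Cox8b and Cox8c, so no difference is given for these. Each measured isoform rests on 1 probe.

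Past 1.2-fold were isoforms and names that are no subunits. Of the 91 measured names 4 were higher by at least 1.2-fold (16.9% of all genes) and 2 were lower (19.9%), and 0 passed 2-fold. Apart from Cox6b2 and Cox6a2, these were Ndufaf4, Sdhaf1 and Atp5s on the higher side and Ndufaf7 on the lower. The other 9 of the 13 that are no subunits, 69.2%, were inside 1.2-fold, against 63.2% of all genes. With spike-in scaling Ndufb3, Ndufv3 and Atp5sl also passed on the higher side, and Ndufaf7 no longer passed. The same scaling put 29.9% of all genes higher and 12.1% lower.

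Ndufaf4, a factor needed to assemble complex I, read 282 and 497 on average over 2 probes, a difference of 0.79 or 1.73-fold. The probe at chr4:24829194-24829253 (mm9, plus strand) read 603 and 845 (0.46), and that at chr4:24830284-24830343 read 132 and 293 (1.12). Both were higher in c-Maf-/-, but by unequal amounts, and with the brighter probe alone the gene lay at 0.46. Its promoter, printed above, holds 1 NRF1 match.

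Sdhaf1, which helps put the iron-sulfur clusters into Sdhb, read 261 and 408, a difference of 0.62 or 1.53-fold, from 1 probe at chr7:31106594-31106653 on the minus strand of mm9. Sdhb itself, as given above, was at -0.15. Sdhaf2, which attaches the flavin to Sdha, read 1483 and 1447 (-0.06). These 2 assembly factors of complex II thus lay apart from each other. Sdhaf4, a further one that is not among the array names taken, lay between them with 1255 and 1416 (0.15).

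Atp5s, coupling factor B of the ATP synthase, read 52.1 and 75.9 (0.52), close to background. With normexp background correction it lay at 0.29. Atp5sl, a factor of complex I assembly despite its name, read 1116 and 1356 (0.26), just inside 1.2-fold. Spike-in scaling, which raised every gene by 0.15, put Atp5sl past that fold. Ndufaf7, a methyltransferase of complex I assembly, read 504 and 416 (-0.30), just outside 1.2-fold. With spike-in scaling Ndufaf7 was at -0.16.

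The rest were closer to 0. Ndufaf1, a complex I assembly factor, lay at 0.11, Cox7a2l, which links complexes III and IV into supercomplexes, at 0.07 over 3 probes, and Ndufaf6 at 0.02. Ndufaf2 lay at -0.16, and Ndufaf3 and Ndufaf5 at -0.03 and -0.02. Atp5c1-ps, a pseudogene copy of Atp5c1, lay at -0.02, and its probe may also take up transcripts of the parent gene.

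The respiratory subunits that the prefixes miss include the 13 made from mitochondrial DNA, each with 1 probe. All 13 were below 0, with a median of -0.19, and 5 of them were lower by at least 1.2-fold (19.9% of all genes), while with spike-in scaling the median was -0.04 and 8 of the 13 were below 0. The count past 1.2-fold was 3 with the percentile over detected probes, and 1, mt-Nd6, with spike-in scaling, quantile or loess normalization. They lay lower than the nuclear subunits by 0.13 at the median, and this gap stayed between -0.14 and -0.12 under all 8 other ways of processing. A change of scale alone cannot move it, since both sets shift together.

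Among the complex I genes of mitochondrial DNA, mt-Nd6 was lowest, with 721 in c-Maf+/- and 511 in c-Maf-/- (-0.52). It is the 1 protein gene on the light strand of the mitochondrial genome. On the heavy strand, mt-Nd4 read 28750 and 23652 (-0.31), mt-Nd4l read 14542 and 12110 (-0.29), mt-Nd2 lay at -0.20, mt-Nd5 at -0.19 and mt-Nd1 at -0.17. The exception was mt-Nd3, with 16158 and 15989 (-0.04), whose probe the files place not on the mitochondrial genome but at chr1:24619613-24619672 of mm9.

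Cytochrome b of complex III, mt-Cytb, read 68525 and 55955 (-0.32). In complex IV, mt-Co1, the catalytic subunit, read 157304 and 131951 (-0.28), but mt-Co2 read 181295 and 176202 (-0.07) and mt-Co3 read 95311 and 95170 (-0.03). In complex V, mt-Atp6 lay at -0.11 and mt-Atp8 at -0.04. The mitochondrial transcripts are cut from long shared precursors, yet their differences were not equal. The call of mt-Co1 at 1.2-fold was lost with spike-in scaling (-0.13), the percentile over detected probes (-0.24), quantile (-0.20) and loess normalization (-0.21).

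Other nuclear genes of the chain that the prefixes miss were near the members. Cycs, cytochrome c, read 27269 and 23943 (-0.21), Atpif1, the inhibitor of the ATP synthase, lay at -0.14, and Atp5md and Atp5mpl, small subunits of that enzyme, at -0.09 and -0.04. Cyc1, the cytochrome c1 of complex III, lay at -0.04. All 5 were inside 1.2-fold.

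Of the listed assembly factors of the complexes, 40 of 43 on the array were measured, with a median of 0.00, 20 above and 20 below 0. At 1.2-fold 7 were higher, 17.5% against 16.9% of all genes, and 4 lower, against 19.9% of all genes; Ndufaf4, Sdhaf1 and Ndufaf7 are among these. With spike-in scaling 14 were higher and 1 lower, where the same scaling put 29.9% of all genes higher and 12.1% lower. The highest and the lowest were both copper chaperones of complex IV. Sco2 read 605 in c-Maf+/- and 1166 in c-Maf-/- (0.92), and Sco1 read 587 and 362 (-0.72). Their SD over genes was 0.30, against 0.07 for the subunits that they put together and 0.41 for all measured genes. Some of the factors are dim, such as Cox17 (51.0 and 46.6), and brightness was not matched in this comparison.

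The other mitochondrial lists were compared at the same fold. Of 17 genes of the tricarboxylic acid cycle, which feeds complexes I and II, 1 was higher and 1 lower, with a median of -0.01. Pdhb, of pyruvate dehydrogenase, lay at 0.32 with probes from -0.01 to 0.96, Dld, shared by several dehydrogenases, at 0.17, Suclg2 of succinyl-CoA synthase at -0.30 and Idh3b of isocitrate dehydrogenase at -0.17. Of 78 mitochondrial ribosomal genes, which serve the subunits made in the organelle, 4 were higher and 0 lower, with a median of 0.04, from Mrps9 and Mrps21 at -0.16 to Mrpl45 at 0.30 and Mrpl50 at 0.35. Of 18 genes of protein import and folding 1 was higher and 0 lower, with a median of 0.02: the chaperonin Hspd1 lay at 0.33, the import channel Tomm40 at 0.18, the carrier Slc25a4 at -0.13 and the receptor Tomm70a at -0.11. With the 75th percentile as the scale, these shares were below the 16.9% and 19.9% of all genes. With spike-in scaling 20 ribosomal, 5 import and 3 cycle genes were higher by 1.2-fold, against 29.9% of all genes, and the ribosomal median was 0.19.

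Factors that drive the making of mitochondria had a median above 0. Of the 15 on the array 13 were measured, all but Ppargc1a and Ppargc1b, which encode the main coactivators of the PGC-1 family. Of the 13, 6 were higher by at least 1.2-fold (16.9% of all genes) and 0 lower (19.9%). The count of higher genes was 5 with the brightest probe per gene. It was 8 with spike-in scaling, where 29.9% of all genes were higher. With no filter on dim probes 7 were higher and 1 lower. Brightness was not matched in this comparison. The median was 0.20 (0.17 to 0.34 under the other ways of processing). Pprc1, a coactivator of the PGC-1 family, read 46.8 and 74.99 (0.65), and Tfb2m, a transcription factor of mitochondrial DNA, read 234 and 358 (0.59). Pprc1 is dim, and lay at 0.30 with normexp background correction. Nrf1, whose motif is marked in the promoters above, read 177 and 251 (0.48), with 3 probes that ran from 0.01 to 1.33, and lay at 0.30 with normexp and 0.01 with its brightest probe. Polrmt, the mitochondrial RNA polymerase, and Polg, the mitochondrial DNA polymerase, both lay at 0.40, while Tfam, which packs mitochondrial DNA, was at 0.06, Ssbp1 at 0.01 and Gabpb1, a partner of GABP, at -0.14. Genes that act on mitochondrial DNA were thus at 0.01 to 0.59, beside the median of -0.19 of the transcripts made from it. With spike-in scaling these genes were at 0.15 to 0.73 and the transcripts at -0.04. A link between them was not tested.

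The list called brakes and switches of respiration had the highest median of the 6 other lists. It mixes genes that restrain respiration or shift cells toward glycolysis with others, such as Vegfa, Egln3 and Bnip3. Of the 14 on the array 13 were measured, all but Pdk4. Of the 13, 9 were higher by at least 1.2-fold (16.9% of all genes) and 0 lower (19.9%), and 3 were higher by 2-fold (1.42%). The count higher by 1.2-fold ran from 8 to 10 under the other ways of processing. It was 10 with spike-in scaling, where 29.9% of all genes were higher. The median was 0.40 (0.38 to 0.55 under the other ways of processing). Egln3, an oxygen-sensing hydroxylase, read 76.1 and 436 (2.49), and Vegfa, a growth factor of vessels, read 128 and 732 (2.49). Bnip3, a receptor for the removal of mitochondria, lay at 1.15, Slc2a1, the glucose transporter, at 0.75, Pdk1, which shuts off pyruvate dehydrogenase, at 0.43, and Higd1a, a small protein bound to complexes III and IV, at 0.41. The lowest were Pdk3 at -0.09 and the uncoupling protein Ucp2 at -0.01. Some of these genes are best known as hypoxia targets, and the list was put together with earlier results of these data known, so its direction is no independent evidence.

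**Figure D4:**
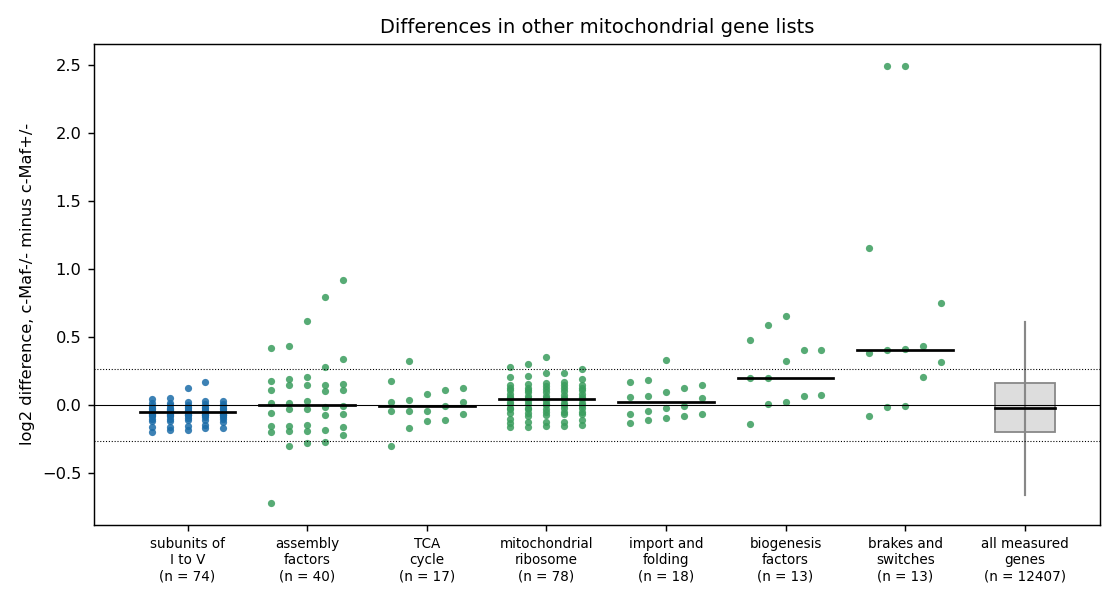
Log2 difference, c-Maf-/- minus c-Maf+/- (vertical axis), with 1 point per gene and a bar at the median for the 74 subunits and 6 other mitochondrial lists, and a box (median, quartiles, 5th to 95th percentile) for all measured genes. The subunits have the smallest spread of the 7 lists, while the biogenesis factors and the brakes and switches lie mostly above 0, with medians of 0.20 and 0.40.

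The cultures also differed in markers of other cells, which bulk RNA cannot assign: fewer cells of a type and less RNA per cell cannot be told apart. Of 10 macrophage names 9 were measured (the older name Emr1 was not well above background, while Adgre1 was), with a median of -0.40, from -2.14 (Mrc1) to 0.58 (Lyz2), and 6 of 9 below 0. Their signals summed to 240641 for c-Maf+/- against 274014 for c-Maf-/-, a sum led by a few bright genes. Csf1r, the M-CSF receptor, read 12615 and 12560. All 9 neutrophil granule and surface genes were below 0, with a median of -1.01, and their signals summed to 99716 and 55115. Dendritic cell genes (6 of 8 measured, Xcr1 and Cd209a not above background) had a median of -0.33 with 4 of 6 below 0, and summed to 44321 and 46414, of which Siglech alone gave 41554 and 43949. Lymphocyte genes (5 of 8 measured) had a median of -0.07 and summed to 4685 and 4070. Erythroid and megakaryocyte genes (6 of 8 measured) had a median of 0.75 with 1 of 6 below 0, and summed to 58851 and 57579, of which Pf4 alone gave 58067 and 56215. Stromal genes (6 of 6) had a median of -0.36 and summed to 3706 and 2845. The part of these cells in the differences of the respiratory genes was not tested.

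**Figure D5:**
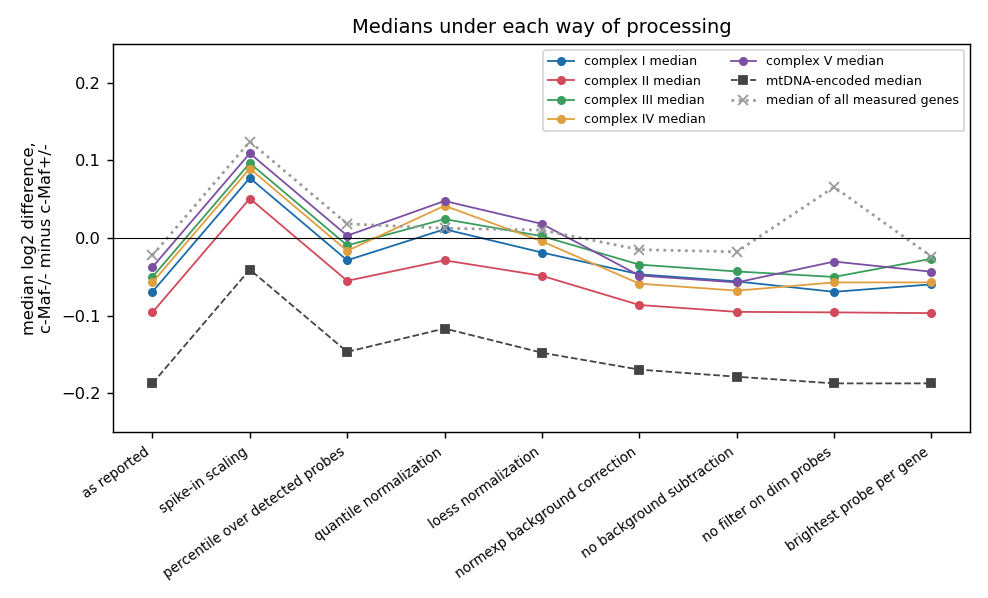
Median log2 difference, c-Maf-/- minus c-Maf+/- (vertical axis), of each complex, of the 13 subunits made from mitochondrial DNA and of all measured genes, as reported and under the 8 other ways of processing (horizontal axis). The medians of the complexes move together, from -0.10 to -0.04 as reported to 0.05 to 0.11 with spike-in scaling, and the mitochondrial line runs below them throughout.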

How the data were processed

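The deposited values are spot intensities from 1 Agilent one-colour array per genotype, written by Feature Extraction 10.7.3.1 for array design 028005 and, per the file headers, background-subtracted but not normalized between arrays. The other deposited columns used are marks of 0 or 1 for detection, saturation and outlier spots. Each array had 62976 spots, of which 59305 on 55674 probes are no controls; 45.3% (c-Maf+/-) and 44.9% (c-Maf-/-) were well above background and 0 were saturated. Both arrays were on the same slide, and the number of arrays limits the precision.

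From log2 of the processed signal, each array's 75th percentile was subtracted (signals of 291 and 296), outlier spots (136 and 149) were dropped, spots of a probe and then probes well above background on both arrays were averaged. Members were read by the array's gene names; for the background, names were matched to RefSeq by accession (28023 probes), symbol (3417) or older symbol (295), with 23939 unmatched. Probe positions are those of the files (mm9), and exon or UTR annotation for mm9 was not used here. Maf bounds set the c-Maf+/- level against the lowest signal well above background in c-Maf-/-.

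No comparison has replicates, so folds of 1.2 and 2 stand in for tests, beside their share among all genes. Beside the members, the rule for named genes takes Maf and the 2 highest and 2 lowest genes of each other list; further genes of the biogenesis and brake lists were chosen after their values were seen. The members and lists were chosen with earlier results of these data known. The similarly bright genes, and the alternatives for mitochondrial DNA and the other lists (counts included), were added after the data were seen. The steps were checked on simulated data, with Python 3.11.15, pandas 2.3.3, statsmodels 0.14.6 and limma 3.58.1. Values of some genes by name are not reported here.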

Additional observations from a re-analysis of the deposited data

How the results depend on the processing

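With 1 array per genotype, values were recomputed under 8 other ways of processing: the mean of the 8 E1A spike-in probes, the percentile over detected probes, quantile or loess normalization, normexp or no background subtraction, no filter on dim probes, and the brightest probe per gene. Spike-in scaling put the medians at 0.077 (complex I), 0.051 (II), 0.097 (III), 0.090 (IV), 0.11 (V), 0.090 (all 5) and -0.040 (mitochondrial DNA), with 87.8% of subunits above 0, 2 subunits higher by 1.2-fold and the Maf bound at -6.83 against -6.98 as reported. Quantile normalization gave 0.011 (I), 0.024 (III), 0.042 (IV), 0.048 (V), 0.017 (all 5) and -0.12 (mitochondrial DNA), with 64.9% above 0. The share above 0 was 37.8% with the percentile over detected probes and 48.6% with loess. The Maf bound was -4.97 with normexp and -5.31 with no background subtraction. With every name that the prefixes take counted, 4 were higher and 2 lower by 1.2-fold. Scaling shifts all genes alike; the cause of the other moves was not tested. Of 336 values of named members 72 moved by more than the spot SD, and of those past 1.2-fold 0 changed sign. Ndufaf7 came inside 1.2-fold with spike-in scaling (-0.16), the detected percentile (-0.26), normexp (-0.25) and no background subtraction (-0.26). Signal near background limits the dim probes. No paired analysis was possible because each genotype has 1 array.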
